A study of Cyprinus carpio with 12 samples.

Results

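Whole-genome bisulphite sequencing of common carp (Cyprinus carpio) gave lists of differentially methylated regions (DMRs), and 6202 of the 80043 listed regions lay on sequence that is not placed on a chromosome. The study compared fresh sperm (day 0) with sperm kept for 14 days after stripping, and mid-blastula embryos fertilised with either kind of sperm. There were 12 libraries in 4 groups of 3, and sperm DNA came from 3 males. According to the study's methods, males received carp pituitary before stripping, fresh and stored sperm of the same males were used, storage was in extender on ice, the eggs came from a single female, and embryos were pooled for each DNA extraction. The methods mention repeated hormone injections and strippings and do not state whether both kinds of sperm came from the same one. With separate strippings, their dates and storage cannot be told apart. With a shared stripping, the embryos of the groups would come from fertilisations on different dates, and neither these nor the eggs used on each could then be separated from storage. The members were chosen by position alone: every region of the sperm or the embryo list on 1 of the 3 joined sequences, named fakechr1, fakechr2 and fakechr3 in the lists, in place of 1 of the 50 chromosomes. They made up 3143 of 41022 regions in sperm (7.66%), with 993 on fakechr1, 1126 on fakechr2 and 1024 on fakechr3. In embryos they made up 3059 of 39021 regions (7.84%), with 934, 1104 and 1021 on the same sequences.

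Unplaced scaffolds are assembled stretches that could not be anchored to a chromosome, often because they are repetitive or nearly identical to other stretches. In these lists such scaffolds are joined into a few artificial chromosomes. In vertebrate genomes most CpG cytosines are methylated, and CpG-dense stretches such as islands and active promoters are the usual exception, while repeats are mostly kept methylated. In the RefSeq gene table of the assembly, 4433 genes lay on unplaced scaffolds, and 37.2% of these were protein-coding, against 76.0% of the 55089 genes on chromosomes. Pseudogenes made up 23.3% of the unplaced genes against 9.28%, long non-coding RNAs 18.4% against 9.97%, tRNA genes 13.1% against 2.54%, rRNA genes 3.27% against 0.481% and snRNA genes 3.18% against 0.474%. The table gives no position for these genes on the joined sequences, so no region below could be tied to a gene. Neighbouring regions of a joined sequence may also lie on different scaffolds.

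Each list gives 1 methylation level per region for the fresh group and 1 for the stored group, with none per library. No level thus has a replicate error, and the depth behind it is unknown. The difference is the stored minus the fresh level in percentage points, and a region is called hypermethylated where the stored group was higher and hypomethylated where it was lower. All listed regions differed by at least 10 points, with a listed p-value below 0.05 and at least 5 CpG-context cytosines. The paper's methods describe a limit on the fold change of the level, and its DMR counts are not those of these lists. The reason is not stated. The listed number counts cytosines on both strands, since 16 unplaced sperm regions and 19 unplaced embryo regions were too short to hold that many on 1 strand. Values were computed for each sequence, and the 3 joined sequences were set against the 50 chromosomes with an exact permutation test over sequences (two-sided, 23426 regroupings, smallest possible p = 8.54e-05), adjusted over 19 results. This test measures the spread between sequences and not that between fish or libraries. It treats each joined sequence, about 50 Mb of joined scaffolds, as a unit like a chromosome. The joined sequences are not natural units, so a small p does not stand for 3 independent sequences. Shares pooled over regions carry 95% Wilson or Newcombe intervals, which cover counting error only and treat regions of 1 sequence as independent.

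Regions on unplaced sequence were less methylated than those on chromosomes in both lists. In sperm, the median of the mean of the fresh and stored levels was 84.3% on fakechr1, 87.3% on fakechr2 and 87.0% on fakechr3, against 88.6% ± 0.795 over the chromosomes (SD, n = 50). The difference was −2.43 points (exact permutation test over sequences, adjusted p = 0.00440), and 47 of the 50 chromosomes lay above all 3 joined sequences. In embryos, the medians were 85.4%, 86.8% and 86.5%, against 88.4% ± 0.801 over the chromosomes, a difference of −2.22 points (exact test, adjusted p = 0.00292). There, 48 of the 50 chromosomes lay above all 3.

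Unplaced sequence had fewer regions at the highest levels and more at intermediate levels, while the share of low levels was similar. A mean level of 90 to 95% was found for 30.6% of the unplaced sperm regions against 40.1% on chromosomes, and for 30.1% against 39.8% in embryos. Within the class of 75% or more, the median was 89.1% against 90.1% in sperm and 88.9% against 90.2% in embryos. In sperm, 23.2% of the unplaced regions had a mean level of 25 to 75%, against 18.2% on chromosomes (difference 5.00 points, 95% interval 3.50 to 6.55). Regions under 25% made up 3.40% against 3.13% (−0.336 to 0.984 points). In embryos, the intermediate class held 23.9% against 19.0% (difference 4.89 points, 3.36 to 6.49), and the class under 25% held 3.40% against 3.53% (−0.752 to 0.593 points). The share under 75% was widest apart on fakechr1 in sperm, at 33.3%, where fakechr2 had 21.5% and the chromosomes 21.1% ± 3.03. Among regions with at least 10 cytosines, or at least 20 points of difference, the medians were higher on unplaced sequence than on chromosomes in both lists, and neither gap passed the test (range of the adjusted p 0.972 to 1).

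**Figure D1:**
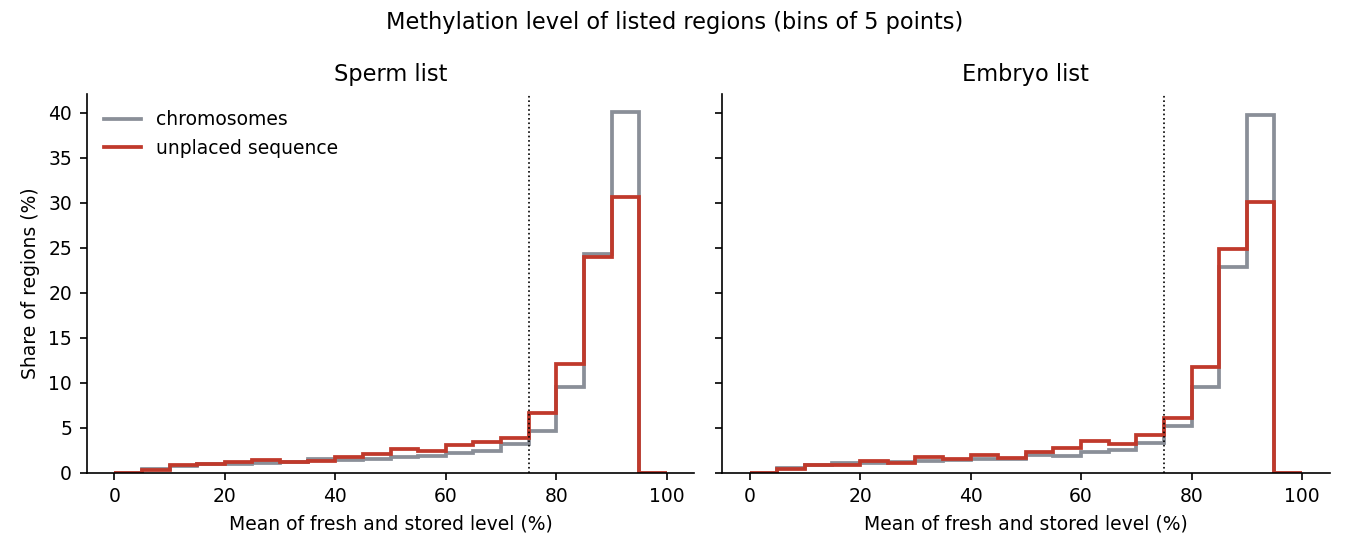
Share of listed regions (y axis, %) by mean of the fresh and stored level (x axis, %, bins of 5 points) for the sperm and the embryo list, unplaced sequence in red and chromosomes in grey, with a dotted line at 75%. The unplaced curves lie lower in the highest occupied bin and higher over most bins between 50 and 85%; no mean can exceed 95% where the levels differ by 10 points or more.

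Hypermethylated regions were a smaller majority on unplaced sequence than on chromosomes in sperm. Of the 3143 unplaced regions, 1843 were higher in stored sperm, 58.6% (56.9 to 60.3), beside 62.0% over the whole sperm list and 62.3% on chromosomes (difference −3.65 points, −5.45 to −1.87). By sequence, the share was 56.8% on fakechr1, 61.1% on fakechr2 and 57.7% on fakechr3, against 62.5% ± 2.33 over chromosomes whose range was 58.3 to 67.8%. The difference of −3.92 points passed the test (exact, adjusted p = 0.0103), and fakechr1 and fakechr3 lay below every chromosome while fakechr2 did not. The median unplaced hypermethylated region stood at 81.4% in fresh and the median of the stored levels was 94.6%. For hypomethylated regions these medians were 90.7% and 75.9%.

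Within classes of mean level, the hypermethylated share in sperm was lower on unplaced sequence only among highly methylated regions. Unplaced sequence also held more regions of 25 to 75%, where this share was lower than at higher levels on both kinds of sequence. How much each added to the gap over all regions was not tested. Among regions with a mean level of 75% or more, 63.4% of 2306 unplaced regions were hypermethylated against 67.7% on chromosomes (difference −4.29 points, −6.35 to −2.28). Between 25 and 75%, the unplaced share was 45.8% of 730 against 42.2% (difference 3.52 points, −0.245 to 7.33), and under 25% it was 43.9% of 107 against 43.2%. Across quartiles of the sperm list by cytosine density, the unplaced hypermethylated share went from 67.9% in the sparsest quartile through 60.7% and 57.2% to 51.7% in the densest. The chromosome shares were 70.7, 66.0, 58.4 and 53.9%. Both sets of regions thus ran the same way across density, and the unplaced share was the lower one in each quartile, with separate intervals in the second quartile alone. Among sperm regions with exactly 5 cytosines the difference was −3.20 points (adjusted p = 0.0677), and among those with at least 10 cytosines or 20 points it was 0.891 and 4.08 points, in the other direction and not passing the test.

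In embryos both directions were about equally common. Of 3059 unplaced regions, 1528 were hypermethylated, 50.0% (95% interval of the difference from chromosomes −2.34 to 1.35 points), beside 50.4% over the whole embryo list. The 3 sequences had 51.8, 52.2 and 45.8%, against 50.5% ± 2.29 over the chromosomes (exact test, adjusted p = 0.754). fakechr3 was the low one, with 1 chromosome below it. Across the density quartiles the embryo shares stayed between 48.4 and 52.1%. Whether the unplaced-to-chromosome gap differed between the sperm and embryo lists was tested on the per-sequence difference of the lists, and for the hypermethylated share it did not pass (−3.32 points, exact test, p = 0.0758, adjusted p = 0.227 over 9 measures).

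**Figure D2:**
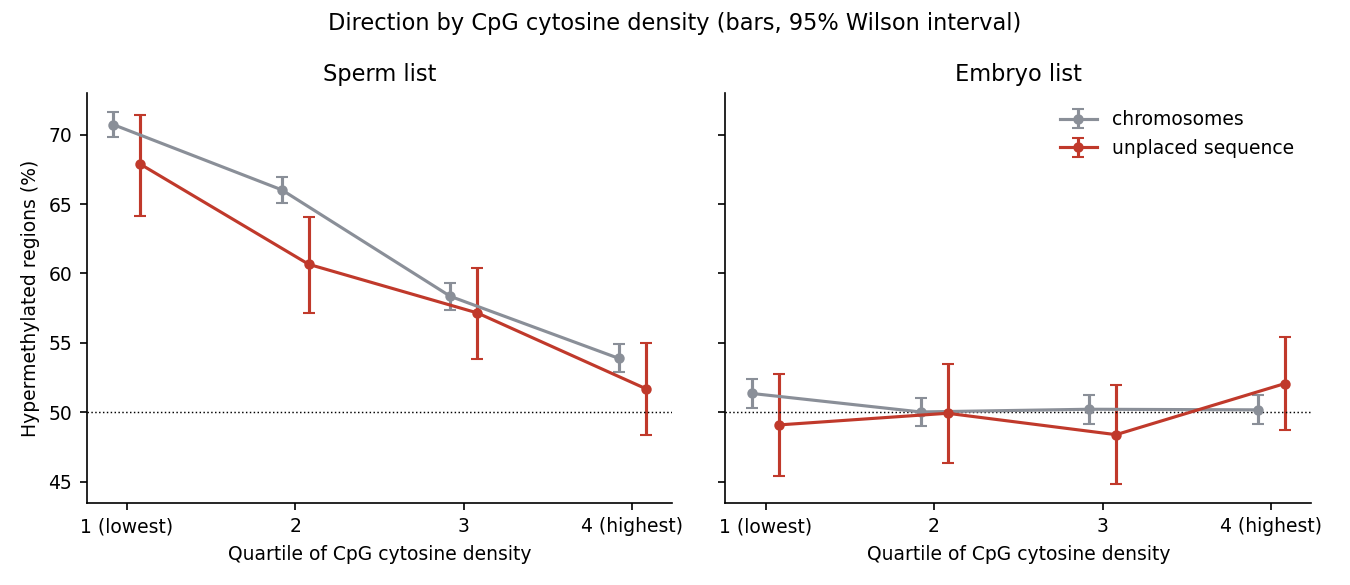
Share of hypermethylated regions (y axis, %) by quartile of CpG cytosine density of each list (x axis), unplaced sequence in red and chromosomes in grey, with 95% Wilson intervals and a dotted line at 50%. In sperm the red points go from 67.9% down to 51.7%, and in embryos they stay between 48.4 and 52.1%.

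Larger differences between fresh and stored groups were more common on unplaced sequence. In sperm, 383 unplaced regions (12.2%) differed by at least 20 points, beside 9.28% of the whole list and 9.03% on chromosomes (difference 3.15 points, 2.02 to 4.38). In embryos it was 394 regions (12.9%), beside 9.98% of the whole list and 9.74% on chromosomes (3.14 points, 1.96 to 4.41). The median absolute difference was 13.3, 12.8 and 12.7 points on the 3 joined sequences in sperm, against 12.3 ± 0.224 (exact test, adjusted p = 0.00440). In embryos it was 13.3, 13.0 and 12.8 points, against 12.4 ± 0.218 (exact test, adjusted p = 0.00243). In each list 48 of the 50 chromosomes lay below all 3 joined sequences. Among regions with at least 10 cytosines the difference from chromosomes was −0.0666 points in sperm and −0.168 in embryos, in the other direction and not passing (exact test, adjusted p = 1 in both). Since every region was listed for its difference, these sizes describe the listed regions and are no estimate for the rest of the sequence.

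The largest single difference towards hypermethylation in the whole embryo list lay on unplaced sequence. This region, fakechr2 (39910344 to 39910375, 32 bp, 5 cytosines), had 14.4% in the fresh group and 79.7% in the stored group. The next on unplaced sequence was fakechr1 (10815389 to 10815423), which held 12 cytosines in 35 bp and had 18.2% and 76.4%. On the hypomethylated side, fakechr1 (44751007 to 44751084, 8 cytosines) had 64.9% against 14.7% and fakechr1 (8394804 to 8394893, 6 cytosines) 74.1% against 28.1%. Of the 100 largest hypermethylated embryo regions, 16 were unplaced, where 7.77% of all hypermethylated embryo regions were. Of the 100 largest hypomethylated ones, 8 were unplaced, close to the 7.91% of all.

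Sperm had no region of that size on unplaced sequence. The largest towards hypermethylation was fakechr3 (16743333 to 16743357, 5 cytosines), with 17.7% in fresh and 58.6% in stored sperm, which ranked 25 in the whole sperm list by that difference. fakechr1 (48330719 to 48330727) packed 6 cytosines into 9 bp and had 11.1% and 49.7%. The largest towards hypomethylation was fakechr1 (22413422 to 22413526, 5 cytosines), with 76.5% and 31.9%, followed by fakechr3 (16125691 to 16125724), with 82.3% and 38.3%. fakechr3 (36204009 to 36204025) had 37.6% in fresh sperm and was listed at 3.33e-05% in stored sperm, a value that may stand for 0. Each direction of the sperm list had 9 unplaced regions among its 100 largest, near the 7.25% of all hypermethylated and 8.34% of all hypomethylated sperm regions. The 10 largest unplaced regions per direction spanned differences of 33.9 to 40.9 points in sperm hypermethylated and 35.9 to 44.6 in sperm hypomethylated regions, and these regions held 5 to 9 cytosines.

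CpG cytosines stood closer together in unplaced regions, most clearly in sperm. The median sperm region had 8.47 cytosines per 100 bp on fakechr1, 8.11 on fakechr2 and 8.42 on fakechr3, and all 50 chromosomes lay below these, at 7.15 ± 0.369 with a range of 6.21 to 7.95. The difference of 1.18 cytosines per 100 bp reached the smallest p the design allows (exact test, p = 8.54e-05, adjusted p = 0.000811). In embryos the medians were 8.93, 8.51 and 8.33, against 8.14 ± 0.410, and the groups overlapped (difference 0.448, exact test, adjusted p = 0.104). The gap between the 2 lists in this measure was 0.735 cytosines per 100 bp (exact test, p = 0.00871, adjusted p = 0.0784).

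Unplaced regions had a shorter median length and more often held many cytosines. The median length was 81 bp against 90 bp on chromosomes in sperm and 77 bp against 80 bp in embryos. Regions with at least 10 cytosines made up 14.2% of unplaced sperm regions against 11.8% on chromosomes (difference 2.40 points, 1.18 to 3.71), and 15.2% against 12.8% in embryos (2.39 points, 1.11 to 3.74). The density gap was also present among sperm regions with exactly 5 cytosines (7.58 against 6.49 per 100 bp over all such regions, exact test over sequences, adjusted p = 0.00324) and among those with a mean level of 75% or more (7.35 against 6.33, adjusted p = 0.00162). Between 25 and 75% the sperm medians were the same, 10.2 per 100 bp, and the embryo medians were 10.8 on unplaced sequence against 10.3. Under 25% the unplaced median was the lower one, at 10.9 against 12.5 in sperm and 11.3 against 12.2 in embryos. This gap, over 107 and 104 unplaced regions, was not tested. The sperm gap did not pass among regions with at least 10 cytosines (0.457, exact test, adjusted p = 0.972) or at least 20 points (0.265, adjusted p = 1). At the extremes stood fakechr3 (13786232 to 13786242), with 10 cytosines in 11 bp and 85.6% in fresh against 96.5% in stored sperm, and fakechr3 (6330588 to 6330826), with 50 cytosines in 239 bp and 70.0% against 58.2% in embryos. The longest unplaced regions were fakechr3 (12940454 to 12941108, 655 bp) in sperm and fakechr2 (10408153 to 10408833, 681 bp) in embryos, both hypomethylated.

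Unplaced regions of the sperm list overlapped a region of the embryo list more often than chromosome regions did. The share of sperm regions with an overlap of at least 1 bp was 12.1% on fakechr1, 9.68% on fakechr2 and 9.86% on fakechr3, and all 50 chromosomes lay below these, at 7.71% ± 1.15 with a range of 4.95 to 9.57%. The difference was 2.83 points (exact test, p = 8.54e-05, adjusted p = 0.000811). Over all unplaced regions it was 330 of 3143 (10.5%), beside 7.95% of the whole sperm list. Seen from the embryo list, the shares were 13.3, 9.96 and 9.79%, against 8.07% ± 1.15 (difference 2.94 points, exact test, adjusted p = 0.00243), and 334 of 3059 regions (10.9%) overlapped, beside 8.33% of the whole embryo list. Each joined sequence lay above the mean of the chromosomes in both lists, and in embryos fakechr1 and fakechr2 lay above every chromosome.

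The excess of overlaps was clear of counting error among highly methylated regions and not in the lower classes. At a mean level of 75% or more, 6.68% of unplaced sperm regions overlapped an embryo region against 4.08% on chromosomes (difference 2.60 points, 1.62 to 3.71), and in embryos 6.30% against 4.21% (2.09 points, 1.12 to 3.20). At 25 to 75%, overlap was frequent on both kinds of sequence, 21.1% against 21.8% in sperm (difference −0.685 points, −3.66 to 2.57) and 23.2% against 22.2% in embryos (1.04 points, −2.05 to 4.37). Under 25%, where unplaced regions were few, it was 20.6% of 107 against 17.9% in sperm (2.62 points, −4.34 to 11.5) and 23.1% of 104 against 17.8% in embryos (5.30 points, −2.09 to 14.5). The overlap was also higher on unplaced sequence where 50% of the shorter region had to be shared (7.89% against 5.55% in sperm, exact test, adjusted p = 0.00108). With both lists limited to regions of exactly 5 cytosines, the sperm overlap did not pass (3.06% against 1.97%, exact test, adjusted p = 0.0519). With both limited to at least 10 cytosines, it was lower on unplaced sequence (8.06% against 10.6%, exact test, adjusted p = 0.972). These shares count only partners within the same limit, while the classes of level above count any region of the other list.

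**Figure D3:**
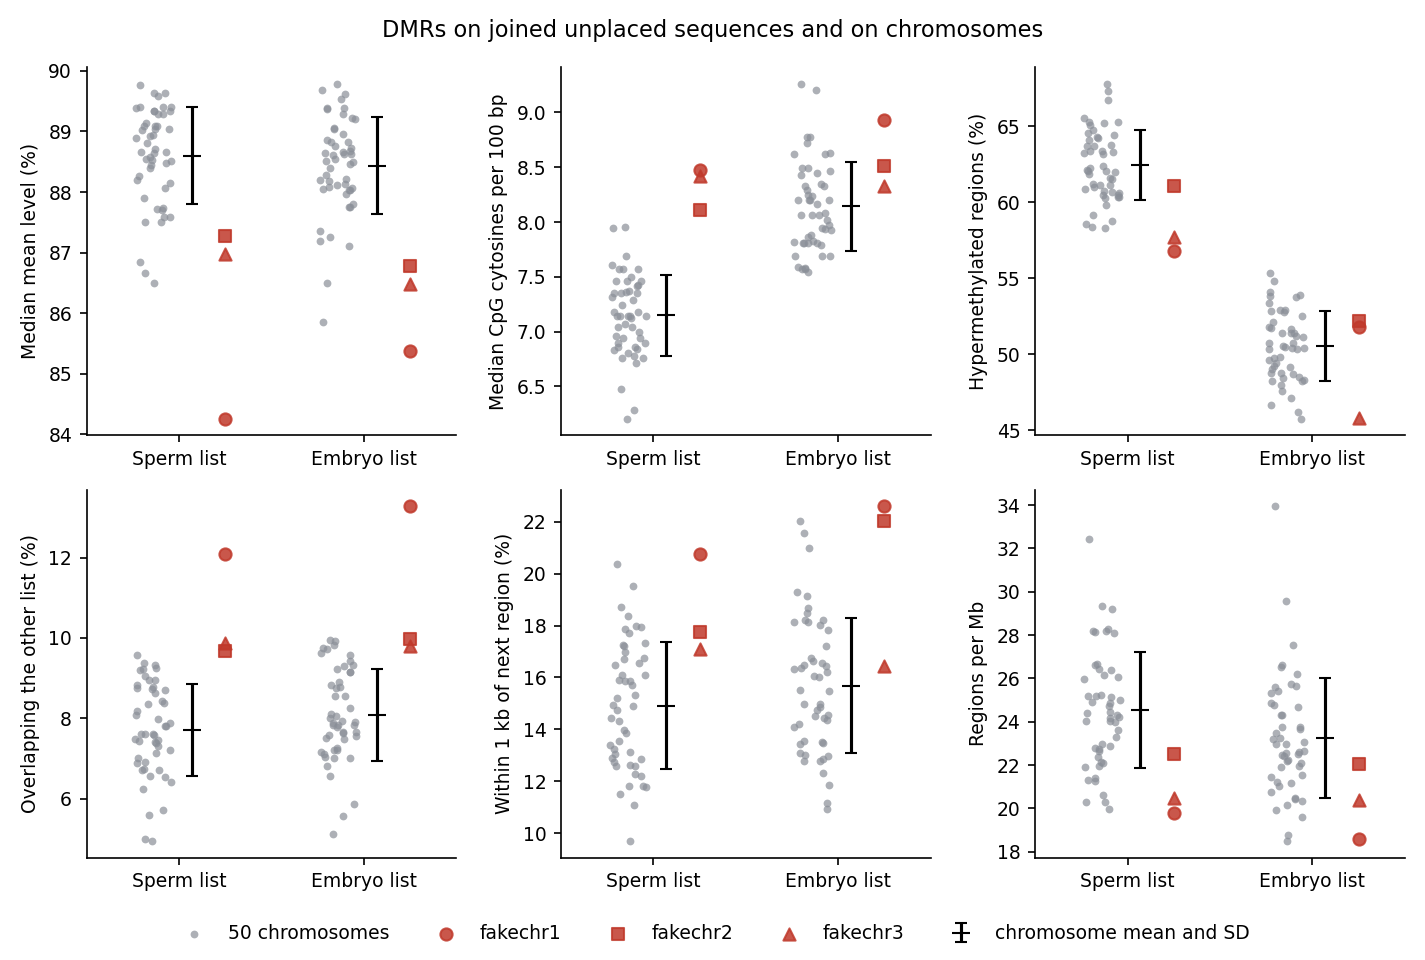
Per-sequence measures (y axes, with units) for each of the 50 chromosomes (grey points, black bar for their mean and SD) and the 3 joined sequences (red), in the sperm and the embryo list. The joined sequences lie at the low end of the mean level. In sperm the 3 red points lie above all grey ones for cytosine density and for overlap. In embryos they lie within the grey range for cytosine density, and 2 of the 3 lie above it for overlap.

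Overlapping regions were as often of opposite as of the same direction. The unplaced regions formed 342 sperm and embryo pairs. In 88 pairs both members were hypermethylated, in 78 both were hypomethylated, in 82 the sperm region was hyper- and the embryo region hypomethylated, and in 94 the reverse held. The same direction was thus found in 166 pairs, 48.5% (43.3 to 53.8), against 48.8% of 3021 pairs on chromosomes. By sequence it was 52.4, 45.5 and 47.1%, against 48.4% ± 7.81 (exact test, adjusted p = 0.976). Across the 342 pairs the correlation of the sperm with the embryo difference was −0.0627, while that of the fresh levels was 0.767. These pairs share libraries and reference and are not independent. Of the 26 pairs with at least 20 points in both lists, 12 had the same direction.

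Individual pairs showed both patterns. At fakechr1 (16509173 to 16509230 in sperm, 16509201 to 16509320 in embryos), levels were lower in both stored groups, at 64.2% and 27.4% in sperm and 83.7% and 52.9% in embryos. At fakechr2 (29207637 to 29207680 and 29207642 to 29207686), with 14 and 17 cytosines, levels were higher in both, at 44.9% and 69.8% in sperm and 46.3% and 80.0% in embryos. The directions were opposite at fakechr3 (31473376 to 31473428 in sperm and to 31473528 in embryos), where sperm had 34.8% fresh and 68.8% stored, and embryos 63.1% and 25.7%.

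In 10 pairs the sperm and embryo regions had identical bounds, and 5 of these had the same direction. The most alike was fakechr1 (42143521 to 42143621, 7 cytosines), with 84.3% and 94.6% in sperm and 84.5% and 94.7% in embryos. fakechr1 (16504059 to 16504110) was higher in both stored groups, at 55.7% and 74.6% in sperm and 41.3% and 77.4% in embryos. fakechr1 (12368143 to 12368215) was lower in stored sperm, 62.1% and 37.7%, and higher in the embryos, 39.7% and 78.6%. fakechr2 (40922046 to 40922075) had 28.5% in fresh sperm and 35.5% in embryos from stored sperm, while stored sperm and embryos from fresh sperm were both listed at the same 3.33e-05% that may stand for 0.

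**Figure D4:**
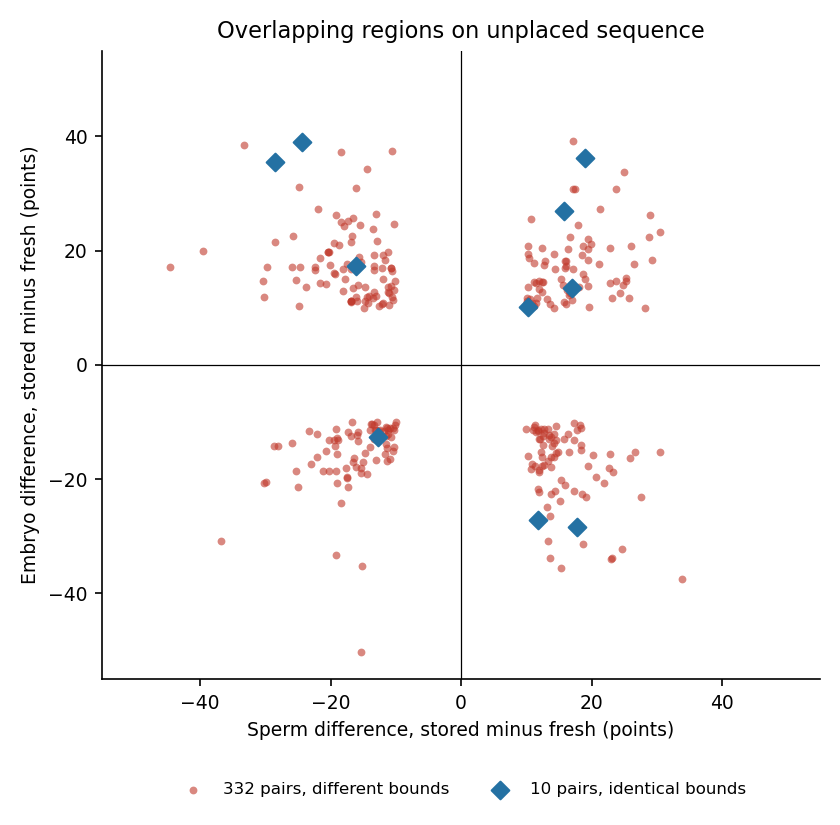
Difference of the embryo region (y axis, percentage points, stored minus fresh) against that of the overlapping sperm region (x axis, same unit) for 342 pairs on unplaced sequence, with 10 pairs of identical bounds as blue diamonds. The pairs fill the 4 quadrants about evenly, with 166 of the same direction, and the band within 10 points of 0 is empty because smaller differences were not listed.

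Unplaced regions more often had a close neighbour in the same list. In sperm, 20.8, 17.8 and 17.1% of the regions on the 3 joined sequences lay within 1 kb of another region of the list, against 14.9% ± 2.45 (difference 3.62 points, exact test, adjusted p = 0.0220). In embryos it was 22.6, 22.0 and 16.5%, against 15.7% ± 2.61 (4.67 points, exact test, adjusted p = 0.0186). The median distance to the nearest region was 8102 bp in sperm and 7464 bp in embryos, against 10195 and 10452.5 bp on chromosomes. At 100 bp the embryo gap did not pass (1.43 points, exact test, adjusted p = 0.0659). Each list was also limited to regions of at least 10 cytosines, so that only neighbours within that limit counted. The difference was then −2.64 points in embryos and 0.322 in sperm (exact test, range of the adjusted p 0.972 to 1). Nearness of these regions to any listed region was not tested.

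Neighbours at most 100 bp apart within a list tended to share their direction, on unplaced sequence as on chromosomes. Of the 98 consecutive unplaced sperm regions at most 100 bp apart, 72 had the same direction, 73.5% (64.0 to 81.2), against 70.3% of 798 on chromosomes. Beyond 100 bp and up to 1 kb it was 58.3% of 218, and from 1 to 10 kb 50.5% of 776, against 56.7 and 52.7% on chromosomes. In embryos the shares were 63.8% of 94, 49.8% of 243 and 49.3% of 722, against 67.3, 51.2 and 51.0%. Independent directions would give 51.0% in sperm and 49.6% in embryos for unplaced neighbours beyond 100 bp and up to 1 kb. On chromosomes it would be 50.0% in both lists. Overlapping regions of a list, which can share cytosines, were counted among those at most 100 bp apart. In each list, 10 unplaced regions overlapped an earlier one. The mean levels of neighbouring sperm regions had a correlation of 0.871 up to 100 bp and 0.658 from there to 1 kb, over the same 98 and 218 neighbours. Runs of at least 4 regions with gaps of at most 1 kb held 0.955% of unplaced sperm regions against 1.01% on chromosomes. In embryos it was 1.18% against 1.04%. The longest unplaced runs in sperm, picked after their values were seen, were fakechr1 (2124230 to 2125588) and fakechr2 (11726577 to 11727328). Each had 5 regions, 4 of them hypermethylated, where the longest chromosome runs had 6. The longest embryo runs had 4 regions on unplaced sequence and 5 on chromosomes. In embryos, 4 regions within 419 bp of fakechr1 (354920 to 355338) were all hypermethylated, with fresh levels of 33.8 to 54.6% and stored levels of 45.9 to 72.9%.

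In sperm the joined sequences held fewer regions per megabase of their whole length, and in embryos the gap narrowly missed the threshold. In sperm they had 19.8, 22.5 and 20.5 regions per Mb, against 24.5 ± 2.67 (exact test, adjusted p = 0.0186), and in embryos 18.6, 22.1 and 20.4, against 23.2 ± 2.77 (exact test, adjusted p = 0.0502). Of 1505 windows of 100 kb, 27.2% held no sperm region, 29.4% no embryo region and 16.1% neither, against 13.6, 15.7 and 4.31% of 15319 chromosome windows. Counted over windows with at least 1 region of either list, the sperm density was 24.9 against 25.6 per Mb (exact test, adjusted p = 0.846). This gap did not pass, and the embryo difference was 0.000473 per Mb (exact test, adjusted p = 0.956). Without the stretch of fakechr1 from 25 to 35 Mb, which held 31 and 22 sperm regions in its windows of 5 Mb where the next windows of 35 to 45 Mb held 66 and 188, the sperm gap was −2.43 per Mb (exact test, adjusted p = 0.133). The length of unresolved sequence within the joined sequences is unknown here, so few regions and little readable sequence cannot be told apart.

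Sperm regions on the joined sequences were also more often gathered in crowded windows, while the embryo gap did not pass the test. In sperm, 4.33, 6.13 and 6.05% of the regions on the joined sequences lay in 100 kb windows with at least 10 regions, against 2.41% ± 2.14 (exact test, adjusted p = 0.0364), with 3 chromosomes above all of them. In embryos it was 0, 3.99 and 4.51%, against 2.56% ± 2.40 (exact test, adjusted p = 0.801). The variance of the sperm count per 100 kb window was 2.35 times its mean, against 1.57 times on chromosomes, and in embryos 2.34 against 1.66 times. Empty windows were more frequent on unplaced sequence in both lists, and their part in this ratio was not tested. The fullest unplaced sperm window, fakechr3 (47200001 to 47300000), held 16 regions, 12 of them hypermethylated, and 5 embryo regions. On chromosomes, 3 windows held at least as many sperm regions. The fullest unplaced embryo window, fakechr3 (35800001 to 35900000), held 14 embryo regions, 7 of them hypermethylated, and 7 sperm regions. At least as many embryo regions were found in 9 chromosome windows. With at least 15 regions per window the sperm gap was 0.326 points (exact test, adjusted p = 0.507).

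Windows rich in sperm regions were rich in embryo regions too. Across 153 unplaced windows of 1 Mb the 2 counts had a Pearson correlation of 0.867 and a Spearman correlation of 0.874, against 0.715 and 0.649 across 1556 chromosome windows. At 100 kb the values were 0.641 and 0.629, against 0.423 and 0.358. The windows share the reference, the CpG content and the length of readable sequence for both lists, and these were not separated. Among unplaced 1 Mb windows, the fullest in sperm was the first of fakechr1, with 55 sperm and 50 embryo regions. The fullest in embryos was fakechr2 from 29 to 30 Mb, with 49 sperm and 54 embryo regions. Chromosome windows reached 66 sperm and 67 embryo regions. The windows of fakechr1 starting at 31, 34 and 37 Mb held 3 sperm regions each and 3, 5 and 4 embryo regions.

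**Figure D5:**
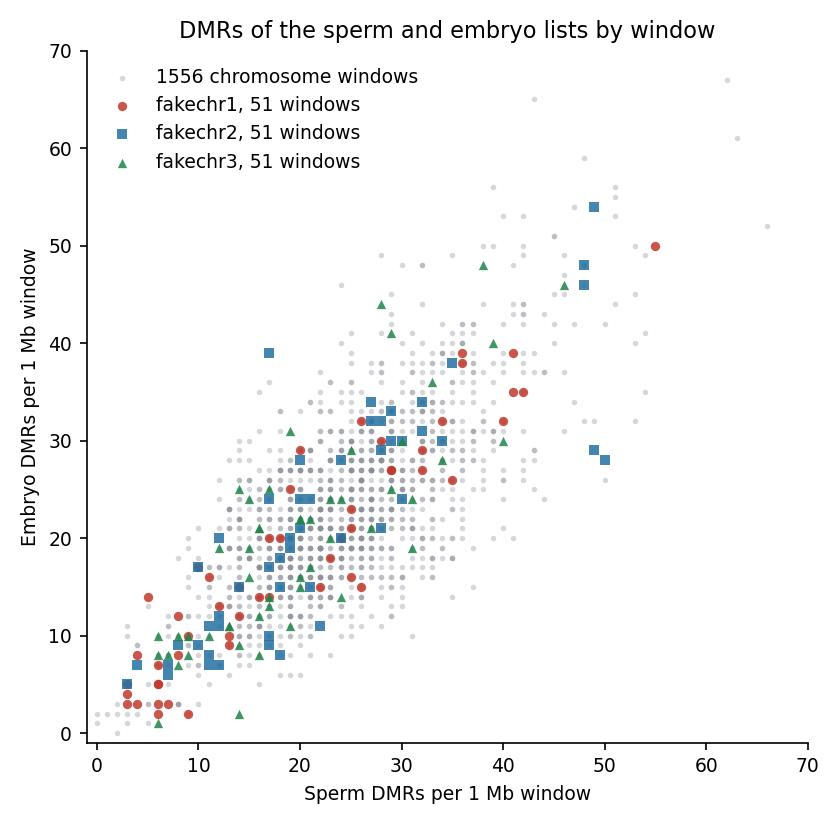
Number of embryo regions (y axis) against the number of sperm regions (x axis) per window of 1 Mb, for the 3 joined sequences (coloured) and the chromosomes (grey). The coloured points run broadly along the diagonal, up to 55 sperm and 50 embryo regions on fakechr1 and 49 and 54 on fakechr2. Some lie well off it, such as a fakechr3 window with 14 sperm and 2 embryo regions. A larger share of them lies at the low end than of the grey points.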

How the data were processed

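Bisulphite reads were mapped by the authors with BSMAP to the common carp RefSeq assembly, and duplicates were removed. The BSMAP version and the treatment of reads that fit several places are not given in the sources used here. The authors deposited 1 DMR list per tissue, with a methylation level per group as a fraction, a p-value, a cytosine number and the signed difference. The methods define the level of a single cytosine as methylated reads over all reads covering it. How levels were combined over the cytosines of a region and over the 3 libraries is not stated. The deposited p-value was used only to check that all lie below 0.05, and the deposited difference was not used. Levels were multiplied into percent, and per-sequence values and exact tests (Benjamini-Hochberg over 19 results) were computed in Python 3.11.15 with numpy 2.4.6, pandas 2.3.3 and scipy 1.17.1, after tests on simulated data. Regions per Mb used the last listed position as length. Regions were named by size of difference (10 per direction and list), extremes of length, cytosine number and density, the fullest windows and the largest overlapping pairs. Members and lists were chosen with earlier results of these data known. Depth per library is unknown in these lists, so no precision per level could be given. Alternatives were other limits on difference, cytosine number, level, overlap, distance and window, each joined sequence alone, pooled shares, and, chosen after seeing the data, regions with exactly 5 cytosines and leaving out 1 sparse stretch. Other embryo assays of the study were not analysed here.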

Additional observations from a re-analysis of the deposited data

How the results depend on the processing

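No paired analysis was possible because the lists hold 1 level per group, and for the same reason no replicate could be left out. Of 136 alternative values, 80 kept their direction and side of the threshold or stayed within 1 SD over chromosomes. Another 28 were counted as changed in direction, 12 kept it but no longer passed, and 16 values without a test moved by at least 1 SD. Values without a test whose main value had not passed were sorted by distance alone, and some of these had the other sign. All values here are unplaced minus chromosomes, and the causes of the changes were not tested. Limits on difference, cytosine number or level were applied to both lists first. Overlap partners and neighbours in these settings therefore had to meet the same limit. Among regions with at least 20 points, sperm gave 4.08 points for the hypermethylated share, 3.38 for the median level, −5.50 for the share under 75%, 0.0323 for the median absolute difference, 0.265 for cytosine density, 0.349 for regions per Mb, −0.450 for overlap and 0.600 for nearness within 1 kb. Embryos gave 1.68, 2.09, −0.989, −0.207 (absolute difference), 0.374 (per Mb), −0.381 (overlap) and −0.822 (nearness). Among regions with at least 10 cytosines, sperm gave 0.891, 4.24, −5.25, −0.0666, 0.457 (cytosine density), 0.117 (per Mb), −2.58 (overlap) and 0.322 (nearness), and embryos 2.53 (median level), −2.50, −0.168, 0.126 (per Mb), −2.29 (overlap) and −2.64 (nearness). The same-direction share was 8.23 points there and 1.81 at levels of 75% or more. No value in either of the 2 smaller sets of regions passed the test, and no window held 10 regions in them. The embryo nearness at 100 bp was 1.43, dense windows of at least 15 regions gave 0.326 in sperm and −0.214 in embryos, and regions per Mb over occupied windows −0.657 and 0.000473. With exactly 5 cytosines the sperm hypermethylated share was −3.20 and overlap 1.09 in sperm and 0.991 in embryos. Without the sparse stretch of fakechr1 the sperm regions per Mb were −2.43.

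Each joined sequence alone gave values with no test. fakechr1 gave −4.34 for the sperm median level, 12.2 for the share under 75%, 1.00 for the absolute difference and 4.38 for overlap, and in embryos −3.05, 0.865 (absolute difference), 5.20 (overlap) and −2.56 (dense windows). fakechr2 gave −1.35 for the sperm hypermethylated share, −1.33 for the median level and 0.398 for the share under 75%. fakechr3 gave −1.63 for the sperm median level and 0.386 for the absolute difference, and in embryos −4.70 for the hypermethylated share, 1.72 for overlap and 0.769 for nearness.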
